A study of Nothobranchius furzeri with 6 samples.

Results

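The 4 genes of glucose and energy supply, PDK4, SLC2A1B, SLC2A15A and CKBB, were followed through the cell types of the ageing killifish retina. Each name matched 1 entry of the gene table (XLOC_014437, XLOC_016471, XLOC_007461 and XLOC_009159), so these were 4 of 24989 genes. They had been selected from genes whose levels by cell type and differences between ages in these same libraries were already known, and PDK4 had also been named by the study from separate bulk libraries. Levels across cell types are therefore given as a description, and the tests between ages show the size of a difference beside the spread of the libraries without being independent support for the choice.

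Transcripts had been counted in single cells of the neural retina of wildtype, untreated female African turquoise killifish (Nothobranchius furzeri), a short-lived vertebrate, of the inbred strain GRZ-AD. Fish were 6, 12 or 18 weeks old, with 2 libraries per age, and the retinas of 3 fish (6 weeks) or 2 fish (12 and 18 weeks) were pooled in a library. The retinal pigment epithelium (RPE) had been taken off before dissociation in all libraries. The study found it harder to remove from young than from old fish. It proposes that RPE cells may therefore be relatively more frequent in samples of young fish. Pooling means that the spread between libraries is that between pools, not between single fish.

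The 6 libraries held 4804 to 7235 cells and 17393089 to 24317894 unique molecular identifiers (UMIs, 1 per captured transcript), 37243 cells in all, of which 342 shared a barcode with a cell of another library. Of the 18 cell type names given by the authors, 16 had at least 10 cells in every library and were tested. The 51 cells annotated as RPE (1 to 13 per library) and 28 red blood cells were not tested. Of 41 marker entries, 37 were highest in the cell type they mark, among them all entries for Müller glia, oligodendrocytes and immune cells. Levels are CPM, that is UMI counts scaled to the TMM-adjusted UMIs of the genes kept for testing in a type and library. RPE-annotated cells, the authors' clusters, the percents of pooled neurons and the pooled SLC2A15A levels were scaled to all UMIs instead. Small types kept fewer genes (4861 in Vip neurons, 15379 in bipolar cells), which raises their levels. CKBB in Vip neurons had 3953 CPM, against 3450 CPM scaled to all UMIs, so small differences between types are not firm. The number of libraries is n.

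Neurons and photoreceptors of the retina use much energy, and glucose reaches them from the blood through transporters of the SLC2A (GLUT) family, which let sugars pass down their gradient. Müller glia span the whole retina, take up glucose, store glycogen and are known for passing lactate to neurons. Inside a cell, pyruvate dehydrogenase kinases such as PDK4 switch off the enzyme complex that feeds pyruvate into the mitochondrial cycle, so that other fuels are burnt. Creatine kinases such as CKBB, a brain-type form, pass phosphate between creatine and ADP and so buffer ATP where demand is high.

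SLC2A1B, a copy of the gene for the glucose transporter GLUT1, was a Müller glia transcript in this retina. Müller glia made up 8.37% of the cells and held 93.2% of its 38076 UMIs. Its level there was 2856 and 2421 CPM in the 6-week-old libraries, 2300 and 3414 CPM in the 12-week-old libraries, and 2993 and 2545 CPM in the 18-week-old libraries. The ranges of the 3 ages overlapped, and the highest and the lowest library were both 12 weeks old. Across all 6 libraries the level was 2755 ± 416 CPM (SD, n = 6), 93.4 times that of the next type, the Vip neurons (29.5 ± 21.6 CPM, 34 UMIs). Scaled to all UMIs instead, Vip neurons had 25.7 CPM, below retinal ganglion cells with 28.6 CPM, so the order below Müller glia is not firm.

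In every other tested type SLC2A1B stayed between 10.8 CPM (horizontal cells) and 29.5 CPM on average, and all neighbours in the order of these types overlapped over the libraries. After each cell was thinned to 1000 UMIs, 63.6% to 74.2% of Müller glia in a library held an SLC2A1B UMI, against 0.810% of horizontal cells and 2.57% of retinal ganglion cells, the lowest and highest shares among the remaining tested types. Without thinning these shares were 79.1%, 4.16% and 7.53%, at a median of 3514 UMIs per cell in Müller glia and 4596 in horizontal cells.

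The low level of SLC2A1B in neurons was set against that of Müller glia markers. Over all neurons of a library pooled, SLC2A1B reached 0.475% to 0.962% of its level in Müller glia. The water channel gene AQP1A.1 (XLOC_015295) reached 0.465% to 0.831%, and the retinaldehyde-binding protein gene RLBP1A 2.32% to 3.66%. For SLC2A1B and AQP1A.1 alike the lowest percent was found in 18-week-old replicate 2. The transcription factor gene LHX2B reached 6.35% to 10.1%, but it was not low in all neurons, with 50.1% of its Müller glia level in glycinergic amacrine cells, 38.6% in GABAergic amacrine cells and 37.7% in retinal ganglion cells. PDK4 lay at 5.83% to 7.92%, and CKBB at 92.7% to 136%.

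**Figure D1:**
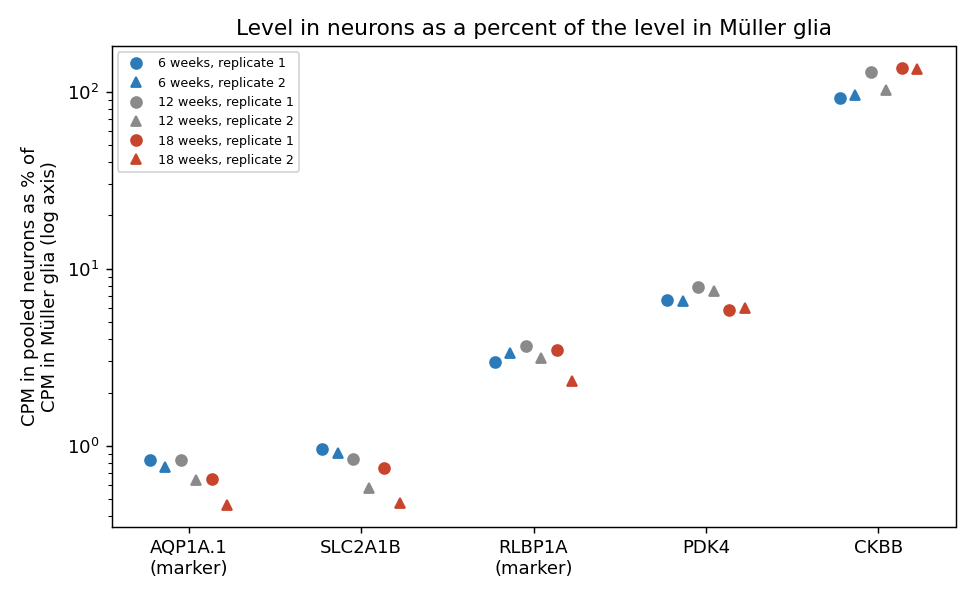
CPM in pooled neurons as a percent of CPM in Müller glia (log axis), for 3 member genes and 2 Müller glia markers, with 1 point per library, coloured by age and shaped by replicate. SLC2A1B lies between 0.475% and 0.962% and AQP1A.1 between 0.465% and 0.831%, while PDK4 lies between 5.83% and 7.92% and CKBB near or above 92.7%.

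Outside the tested types, SLC2A1B was also found in RPE-annotated cells, where it differed widely between libraries. It measured 111 and 2945 CPM at 6 weeks, 339 and 5260 CPM at 12 weeks, and 705 and 4135 CPM at 18 weeks, from 1 to 13 cells a library. Replicate 2 was above replicate 1 at each age. Whether the make-up of these few cells differed between libraries was not tested. The other GLUT1 copy, SLC2A1A (XLOC_021881), had its highest levels elsewhere, in UV-cones (853 ± 141 CPM, SD, n = 6), S-cones (639 ± 124 CPM), rods (514 ± 138 CPM) and L/M-cones (359 ± 98.3 CPM). In Müller glia SLC2A1A was at 9.28 ± 1.98 CPM.

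SLC2A15A belongs to a branch of the sugar transporter family that fish have kept, and in medaka its sister gene SLC2A15B is known for a part in pigment cells. SLC2A15A was rare throughout, with 78 UMIs in the whole data set, so that each of its values rests on few molecules. Of these, 42.3% lay in Müller glia, 19.2% in oligodendrocytes, 12.8% in bipolar cells and 11.5% in RPE-annotated cells. Oligodendrocytes had the highest mean level of the tested types, 8.42 ± 5.59 CPM (SD, n = 6), from 15 UMIs, and overlapped with Müller glia (2.82 ± 4.05 CPM). In 7 of the 16 tested types, among them horizontal cells, S-cones and UV-cones, it had no UMI. SLC2A15B (XLOC_003171) had 3 UMIs in Müller glia and was not tested there.

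PDK4 was likewise highest in Müller glia, which held 60.7% of its 1696 UMIs. Oligodendrocytes followed, and the level in Müller glia was above that in oligodendrocytes in 6 of 6 libraries (80.0 ± 10.7 against 42.2 ± 21.2 CPM, SD, n = 6), although the ranges over libraries overlapped. Oligodendrocytes in turn lay above every library of starburst amacrine cells (12.7 ± 7.47 CPM). From there the types formed a run without a gap down to Vip neurons and UV-cones, with 1 UMI each. Horizontal cells had 10.5 ± 1.72 CPM, bipolar cells 4.89 ± 0.688 CPM and L/M-cones 1.07 ± 0.799 CPM. At 1000 UMIs per cell, 5.49% to 8.59% of Müller glia in a library held a PDK4 UMI, and 0.305% of L/M-cones (25.1% and 0.854% before thinning).

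The other kinases of this family were spread differently. PDK2(1OF2) was highest in horizontal cells (166 ± 28.6 CPM, SD, n = 6). PDK3 (116 ± 30.0 CPM) and PDK1 (38.9 ± 21.9 CPM, 36 UMIs) had their highest means in starburst amacrine cells. Both overlapped there with GABAergic amacrine cells (83.2 ± 13.4 CPM for PDK3 and 31.1 ± 7.53 CPM for PDK1), so this order is not firm. The entry PDK4 carries the name pdk4 in RefSeq, while the study's tables pair it with human PDK2 as the nearest human gene. The number in its name should therefore be read with care.

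CKBB was found in all cell types and was the only member with its peak in photoreceptors. UV-cones had 8857 ± 1302 CPM (SD, n = 6) and S-cones 6843 ± 784 CPM. UV-cones were higher than S-cones in 6 of 6 libraries, with overlapping ranges, and S-cones were higher than bipolar cells (4973 ± 467 CPM) without overlap. Bipolar cells and L/M-cones (4965 ± 409 CPM) could not be told apart by their spread, and Müller glia were in the middle of the order with 3658 ± 740 CPM. The low end was held by differentiating cells (1194 ± 246 CPM), immune cells (643 ± 73.4 CPM) and oligodendrocytes (493 ± 164 CPM). The authors' bipolar clusters differed among themselves, from 3660 ± 165 CPM in cluster 25 to 7097 ± 174 CPM in cluster 9. The sister entry CKB(1OF3) was more narrowly spread, with its highest levels in L/M-cones (2775 ± 547 CPM) and S-cones (2764 ± 448 CPM), against 121 ± 29.3 CPM in bipolar cells.

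**Figure D2:**
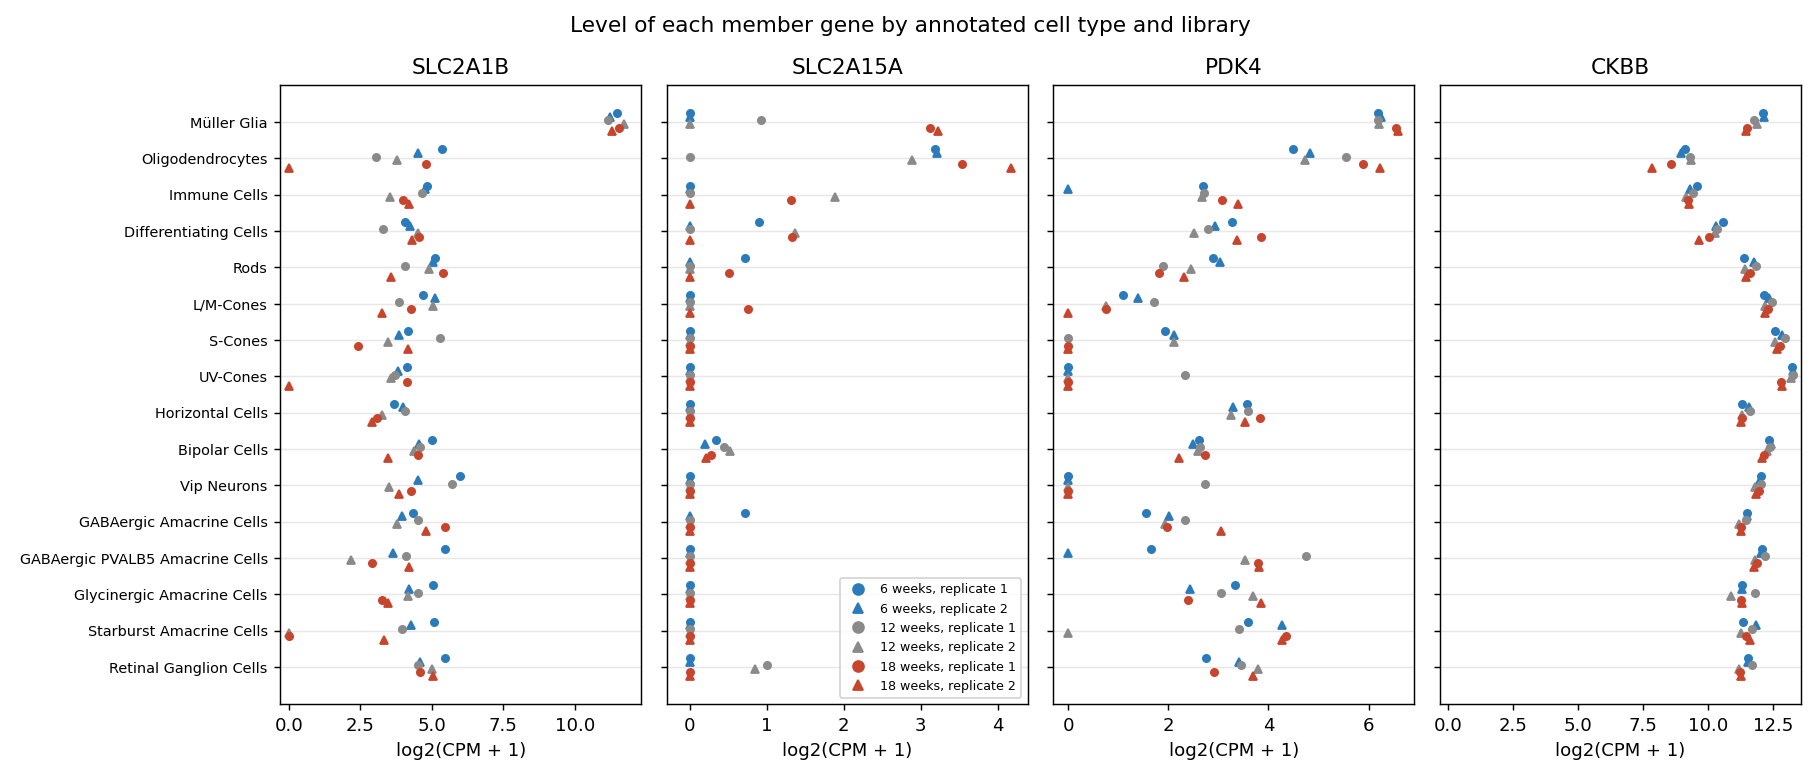
log2(CPM + 1) of the 4 genes (panels) in each tested cell type (rows), with 1 point per library, coloured by age and shaped by replicate. SLC2A1B and PDK4 are highest in Müller glia, with means of 2755 and 80.0 CPM. SLC2A15A is low or at 0 in all types, with its highest mean in oligodendrocytes (8.42 CPM). CKBB is high in all neurons and lowest in oligodendrocytes (493 CPM).

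By the correlation of log2(CPM + 1) over the 96 sums of a tested type and library, among 9257 genes, the entries most like SLC2A1B were RLBP1A (r = 0.86), AQP1A.1 (0.86), SLC39A12 (0.85), CU571169.1 (0.85) and Nfu_p_1_007988 (0.84). Those most like PDK4 were OLA.20330 (0.73), SLC7A2 (0.72), GAB1 (0.72), SPRY4 (0.71) and VIML (0.71). Those most like CKBB were HLFA (0.88), THRA (2 OF 2) (0.88), PER2(1OF2) (0.85), MXD1 (0.85) and CRY2A (0.85). For SLC2A15A, which reached 50 CPM in no tested type, they were Nfu_p_1_011822 (0.78), CX27.5 (0.76), RBM24A (0.74), LOC107378133 (0.72) and TSC22D2(2OF2) (0.72). The sums of 1 library share its preparation and depth, and types are not replicates, so these values only describe the pattern.

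Ages were then compared within each cell type, to see in which cells the members differed between 6 and 18 weeks. Differences are log2 fold changes from edgeR's quasi-likelihood test, with Benjamini-Hochberg adjusted p over all genes of a fit, and an adjusted p under 5% was called. Over the 16 types, 2.36% of all gene and type pairs were called (1.08% higher and 1.28% lower at 18 weeks). Of the members, 33 pairs could be tested and 2 were called, both in Müller glia, where 5.31% of genes were called. SLC2A15A was the higher of them, as were 2.76% of the genes in Müller glia, and CKBB the lower, as were 2.55%. With all cells of a library summed, 3.63% of genes were called, and 1 of the 4 members, SLC2A15A, was among them. In both fits SLC2A15A passed the filter on low counts only through the 18-week-old libraries, in which it was high, so its calls are a description and no support for a difference.

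SLC2A15A was found in Müller glia almost only at 18 weeks. It had 0 and 0 UMIs at 6 weeks, 2 and 0 at 12 weeks, and 16 and 15 at 18 weeks, or 0, 0, 0.890, 0, 7.69 and 8.36 CPM. Both 18-week-old libraries lay above all 4 younger ones. For 24.7% of all genes in Müller glia both lay above both 6-week-old libraries. Against a floor of 3 counts over both 6-week-old libraries (0.633 CPM), the pooled level at 18 weeks (7.97 CPM) was 12.6-fold higher. This ratio leaves out the counting error of the UMIs at 18 weeks, whose pooled level had a lower Poisson limit of 5.42 CPM. In edgeR the adjusted p was 0.00189 with the low-count filter, which the gene passed through the 18-week-old libraries alone. Without a filter the adjusted p was 2.09e-07. This value is set against a 6-week group at 0, for a gene chosen with its age difference known. It is no support for the difference either. The fitted log2 fold change of 7.12 is against a group at 0 and is no measure of size.

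From 12 to 18 weeks the pooled level of SLC2A15A in Müller glia went from 0.448 CPM (exact 95% Poisson interval 0.0543 to 1.62) to 7.97 CPM (5.42 to 11.3), a ratio of 17.8 (4.53 to 153, counting error only). Under the same filter this difference was called (log2 fold change 3.97, SE 0.79, adjusted p = 0.0267), but not in DESeq2 (adjusted p = 0.213) and not when either 12-week-old or either 18-week-old library was left out. It was the only member pair called at 18 against 12 weeks in edgeR, where 0.913% of genes in Müller glia and 0.493% of pairs over the 16 types were called. With all cells summed 0.0686% of genes and none of the members were called.

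The 33 UMIs came from 26 Müller glia, of which 21 held 1 UMI, 3 held 2 and 2 held 3. At 18 weeks these were 13 and 11 cells of the 2 libraries, or 2.90% of 828 cells (Wilson 95% interval 1.96 to 4.28). At 6 weeks 0 of 1163 cells held a UMI, which allows a share of up to 0.258% of cells with a UMI and sets no limit on cells that carry the transcript. These 26 cells had a median of 7460 UMIs, against 3514 over all Müller glia. Median UMIs per Müller cell were 2538 and 3932 in the 6-week-old and 4045 and 4000 in the 18-week-old libraries. Horizontal cells, with a median of 4596 UMIs, had a UMI in 0 of 2717 cells at any age (up to 0.110% of cells with a UMI). After thinning to 1000 UMIs too few SLC2A15A UMIs were left in Müller glia for a test.

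RNA of pigment cells could also carry SLC2A15A, whose UMIs in RPE-annotated cells numbered 0 and 1 at 6 weeks, 0 and 0 at 12 weeks, and 5 and 3 at 18 weeks. Only 7.84% of the 51 RPE-annotated cells held such a UMI, and whether all of these 51 are pigment cells was not tested. In the sum of all cells 4 smooth muscle entries had 36.9 CPM in 12-week-old and 50.2 CPM in 18-week-old replicate 1. The remaining libraries had 0.478 to 4.20 CPM, and no such entry averaged above 2.62 CPM in a tested type. The summed level of the 7 RPE and pigment marker entries in Müller glia was 40.4 to 42.2 CPM at 6 weeks, 36.0 to 48.4 CPM at 12 weeks and 35.7 to 47.1 CPM at 18 weeks, so the ranges of 6 and 18 weeks overlapped. Much of this sum, 24.5 to 36.2 CPM, came from RPE65(1OF2), whose highest tested type was Müller glia itself. TYR, a pigment enzyme gene, had 3.05 and 1.46 CPM at 6 weeks, 3.56 and 7.99 CPM at 12 weeks, and 4.32 and 5.57 CPM at 18 weeks, without overlap between the youngest and the oldest libraries. Such an order was seen for 24.7% of all genes in Müller glia. RPE65A had 4.58 and 13.1 CPM at 6 weeks and 5.28 and 1.11 CPM at 18 weeks, with overlap. DCT also overlapped (3.56 and 0.364 CPM, then 3.36 and 3.90 CPM). TYR(1OF2), PMELA and PMELB stayed at or under 0.557 CPM. The part of pigment cell RNA in the SLC2A15A values was not tested. None of the 7 entries was at 0 in all libraries. In oligodendrocytes SLC2A15A had 3 and 3 UMIs at 6 weeks, 0 and 2 at 12 weeks, and 4 and 3 at 18 weeks, too few to be tested.

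In the sum of all cells SLC2A15A had 8, 5, 5, 8, 30 and 22 UMIs in the libraries from 6 to 18 weeks (0.338, 0.210, 0.259, 0.382, 1.73 and 1.21 CPM). Both 18-week-old libraries were the highest (log2 fold change 2.40, SE 0.44, adjusted p = 0.0393 at 18 against 6 weeks). For 28.7% of all genes in this sum both lay above both 6-week-old libraries. The call was lost when any 6- or 18-week-old library was left out (adjusted p 0.0656 to 0.218). In such a sum, more cells of a type and more RNA per cell cannot be told apart.

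CKBB fell in Müller glia. Its level was 4410 and 4554 CPM at 6 weeks, 3499 and 3792 CPM at 12 weeks, and 2900 and 2792 CPM at 18 weeks. The 3 ages did not overlap, with 12 weeks between the others, and 23.8% of all genes in Müller glia had both 18-week-old libraries below both 6-week-old ones. The log2 fold change was -0.66 (SE 0.13, adjusted p = 0.00877) at 18 against 6 weeks. The steps from 6 to 12 weeks (-0.30, SE 0.13, adjusted p = 0.583) and from 12 to 18 weeks (-0.36, SE 0.13, adjusted p = 0.315) were not called. Without 18-week-old replicate 1 or 2 the difference was -0.68 and -0.63, with an adjusted p of 0.0939 and 0.137. Thinning the cells to 1000 UMIs left -0.53 (adjusted p = 0.176).

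Markers of neurons in Müller glia, which could carry CKBB from other cells, mostly had lower levels at 18 weeks. The 4 rod entries summed to 1771 to 2043 CPM at 6 weeks, 1606 to 2285 CPM at 12 weeks and 1400 to 1672 CPM at 18 weeks. The 4 bipolar entries summed to 65.5 to 123 CPM at 6 weeks and 59.1 to 63.9 CPM at 18 weeks, and the 2 cone entries to 194 to 567 and 218 to 259 CPM. The 7 amacrine entries summed to 65.1 to 76.8 CPM at 6 weeks and 40.1 to 47.1 CPM at 18 weeks, and the 4 horizontal cell entries to 12.7 to 16.3 and 7.21 to 7.80 CPM. The rod, bipolar, amacrine and horizontal cell sums did not overlap between 6 and 18 weeks, and the cone sums did. Both 18-week-old libraries were below both 6-week-old ones for 23.8% of all genes in Müller glia. Of the bipolar entries VSX1 was at 0 in all 6 libraries. The ganglion cell entries moved the other way (518 to 569 CPM at 6 weeks and 957 to 1229 CPM at 18 weeks), nearly all of it from RBPMS2. Their part in the result was not tested. The Müller glia markers RLBP1A, LHX2B and AQP1A.1 summed to 11733 to 14511 CPM at 6 weeks and 16230 to 16327 CPM at 18 weeks. These did not overlap either, and 24.7% of all genes in Müller glia had both 18-week-old libraries above both 6-week-old ones.

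**Figure D3:**
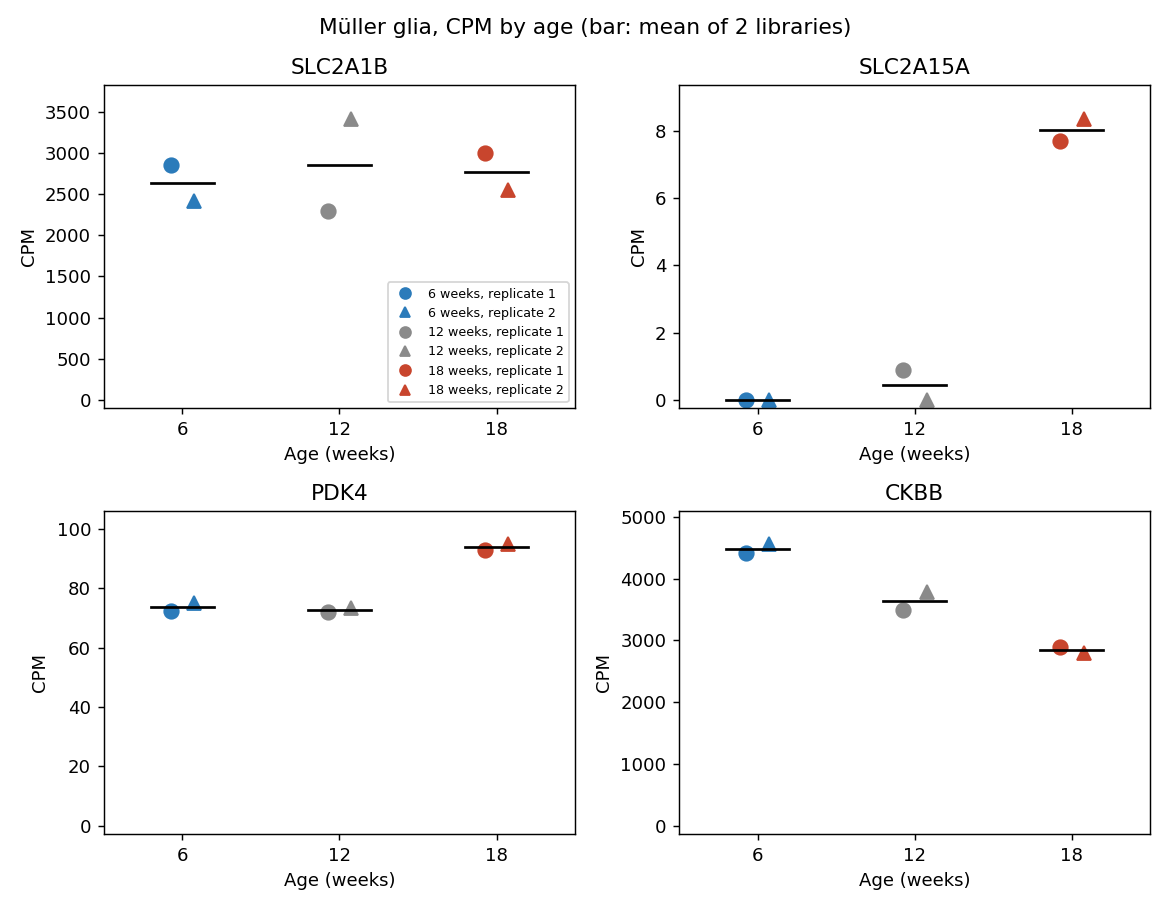
CPM of the 4 genes in Müller glia by age in weeks, with 1 point per library and a bar for the mean of the 2 libraries of an age. SLC2A1B overlaps between ages, SLC2A15A is at 0 in both 6-week-old libraries and near 8 CPM (mean 8.02) at 18 weeks, PDK4 goes from a mean of 73.6 to 93.7 CPM, and CKBB from 4482 to 2846 CPM.

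In the other 15 types CKBB was not called at 18 against 6 weeks. Its log2 fold change was below 0 in 14 of 16 types, with a median of -0.22, against a median near 0 over all genes (0.0014). Both 18-week-old libraries were below both 6-week-old libraries in 11 of 16 types, and this held for 22.4% of all gene and type pairs. The 16 types include Müller glia and come from the same 6 libraries, so they are not separate observations. In oligodendrocytes CKBB had 562 and 498 CPM at 6 weeks, 633 and 656 CPM at 12 weeks, and 379 and 229 CPM at 18 weeks (-0.75, SE 0.23, adjusted p = 0.154). Without 18-week-old replicate 1 the estimate was -1.23 and without replicate 2 it was -0.46. Such an order of the libraries was found for 23.0% of all genes in oligodendrocytes. Differentiating cells (-0.58, SE 0.17, adjusted p = 0.184) and UV-cones (-0.43, SE 0.15, adjusted p = 0.207) also had estimates below 0.

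UV-cones had 9622 and 9824 CPM of CKBB at 6 weeks, 9996 and 9289 CPM at 12 weeks, and 7117 and 7292 CPM at 18 weeks. The oldest libraries were thus the lowest, and the difference was called only when a 12-week-old library was left out of the fit (adjusted p = 0.0168 and 0.0176). Over the 16 types, 22.4% of all gene and type pairs had both 18-week-old libraries below both 6-week-old ones. L/M-cones and S-cones had log2 fold changes of 0.01 (SE 0.17) and 0.0029 (SE 0.19). With all cells of a library taken as 1 sum, CKBB had 3870 and 4052 CPM at 6 weeks and 3493 and 3315 CPM at 18 weeks (-0.22, SE 0.19, adjusted p = 0.529).

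Whether the fall of CKBB in Müller glia was larger than its change in the other types was tested with limma on differences within a library. The difference of log2 level between Müller glia and the mean of the other 15 types was 0.69 at 6 weeks and 0.27 at 18 weeks, a change of -0.42 (SE 0.22, adjusted p = 0.542). The age effect in Müller glia was thus not shown to differ from that in the other types. The sister entry CKB(1OF3) had 633 and 691 CPM in Müller glia at 6 weeks and 872 and 961 CPM at 18 weeks, higher in both older libraries but not called (0.47, SE 0.14, adjusted p = 0.0705). Such an order was seen for 24.7% of all genes in Müller glia.

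The study reports higher PDK4 levels in old than in young retinas, from its separate bulk libraries. In the single-cell libraries PDK4 was called in none of the 6 types in which it could be tested in edgeR. It was not called in the sum of all cells either, and 2 of the 6 types had an unadjusted p under 0.05. Over all genes such a p was found for 2420 of 12711 in Müller glia and 796 of 6336 in oligodendrocytes. In Müller glia it had 72.2 and 75.0 CPM at 6 weeks, 72.1 and 73.3 CPM at 12 weeks, and 92.7 and 94.7 CPM at 18 weeks. The 18-week-old libraries stood above the 4 others, which lay close together (log2 fold change at 18 against 6 weeks 0.35, SE 0.16, adjusted p = 0.239). Both 18-week-old libraries above both 6-week-old libraries was seen for 24.7% of all genes in Müller glia. In DESeq2 as well as under every other setting tried this difference was not called, with log2 fold changes of 0.32 to 0.38 when a library was left out.

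In oligodendrocytes PDK4 had 21.5 and 27.5 CPM at 6 weeks, 45.9 and 25.5 CPM at 12 weeks, and 58.7 and 74.3 CPM at 18 weeks. The oldest libraries were again the highest (1.38, SE 0.41, adjusted p = 0.148), on 80 UMIs over all 6 libraries. Oligodendrocytes numbered 26 to 85 cells per library, and the levels of some marker lists in their sums differed between ages. Their own 5 marker entries summed to 28331 to 28847 CPM at 6 weeks and 22783 to 22991 CPM at 18 weeks. The amacrine entries in them summed to 278 to 406 and 629 CPM, and the bipolar entries to 116 to 412 and 37.3 to 51.4 CPM. The Müller glia entries (168 to 188 and 177 to 320 CPM) and rod entries (1266 to 1412 and 1092 to 1739 CPM) overlapped. The cone entries overlapped too. Whether the cells in these sums or their expression differed was not tested. The part of these marker differences in the PDK4 and CKBB values of this type was not tested. Both 18-week-old libraries lay above both 6-week-old libraries for 20.4% of all genes in oligodendrocytes. In rods both older libraries had lower PDK4 values (6.42 and 7.17 CPM at 6 weeks, and 2.51 and 3.99 CPM at 18 weeks), and the estimate was -1.09 on the log2 scale (SE 0.56, adjusted p = 0.380). Over the 16 types 22.4% of all gene and type pairs had both 18-week-old libraries lower. For all cells of a library summed, PDK4 had 10.8, 13.4, 14.5, 12.5, 17.6 and 15.1 CPM from 6 to 18 weeks (0.43, SE 0.16, adjusted p = 0.155). Both 18-week-old libraries lay above both 6-week-old libraries there, as for 28.7% of all genes. With 2 libraries per age, the missing call does not show that PDK4 stays level with age.

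SLC2A1B was not called in any of its 10 tested types in edgeR, of which 4 had an unadjusted p under 0.05. Such a p was common over all genes, with 3582 of 15379 in bipolar cells and 1687 of 10348 in L/M-cones. It was also found for 2124 of 11286 genes in horizontal cells and 1263 of 12545 in GABAergic amacrine cells. In Müller glia the log2 fold change at 18 against 6 weeks was 0.07 (SE 0.18, adjusted p = 0.880), and its sign turned without 6-week-old replicate 2 or 18-week-old replicate 1. At the SE given, the interval of the difference (estimate ± 2 SE) reached up to 0.43. In bipolar cells, where its level was low, SLC2A1B had 31.2 and 22.6 CPM at 6 weeks and 21.9 and 10.1 CPM at 18 weeks (-0.81, SE 0.26, adjusted p = 0.0855). The estimate hung on single libraries, with -1.41 without 18-week-old replicate 1 (adjusted p = 0.00585) and -0.30 without 18-week-old replicate 2 (adjusted p = 0.566). It was called with the replicate block (adjusted p = 0.00770) and not in DESeq2 (adjusted p = 0.578). L/M-cones (-1.05, SE 0.38, adjusted p = 0.159) and horizontal cells (-0.92, SE 0.35, adjusted p = 0.162) had estimates on the same side.

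In GABAergic amacrine cells SLC2A1B had 19.4 and 14.5 CPM at 6 weeks, and 42.6 and 26.9 CPM at 18 weeks, a difference that did not pass the test (1.00, SE 0.35, adjusted p = 0.372). The share of these cells with a UMI after thinning ran the other way (3.24% and 1.81% at 6 weeks, and 0.617% and 1.34% at 18 weeks), so no order of ages can be read from it. The test of the difference from the other types in limma gave 1.63 (SE 0.24, adjusted p = 0.251). Over all genes and types that test called 0.00654% of pairs, and 0 of the 48 pairs of PDK4, SLC2A1B and CKBB. SLC2A15A was below the level it needs. At 12 against 6 weeks no member was called in any type in edgeR or DESeq2 (0.122% of all pairs and 0.59% of genes in Müller glia called in edgeR). In edgeR 1 of the 33 pairs had an unadjusted p under 0.05, CKBB in Müller glia, as did 1029 of 12711 genes there.

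**Figure D4:**
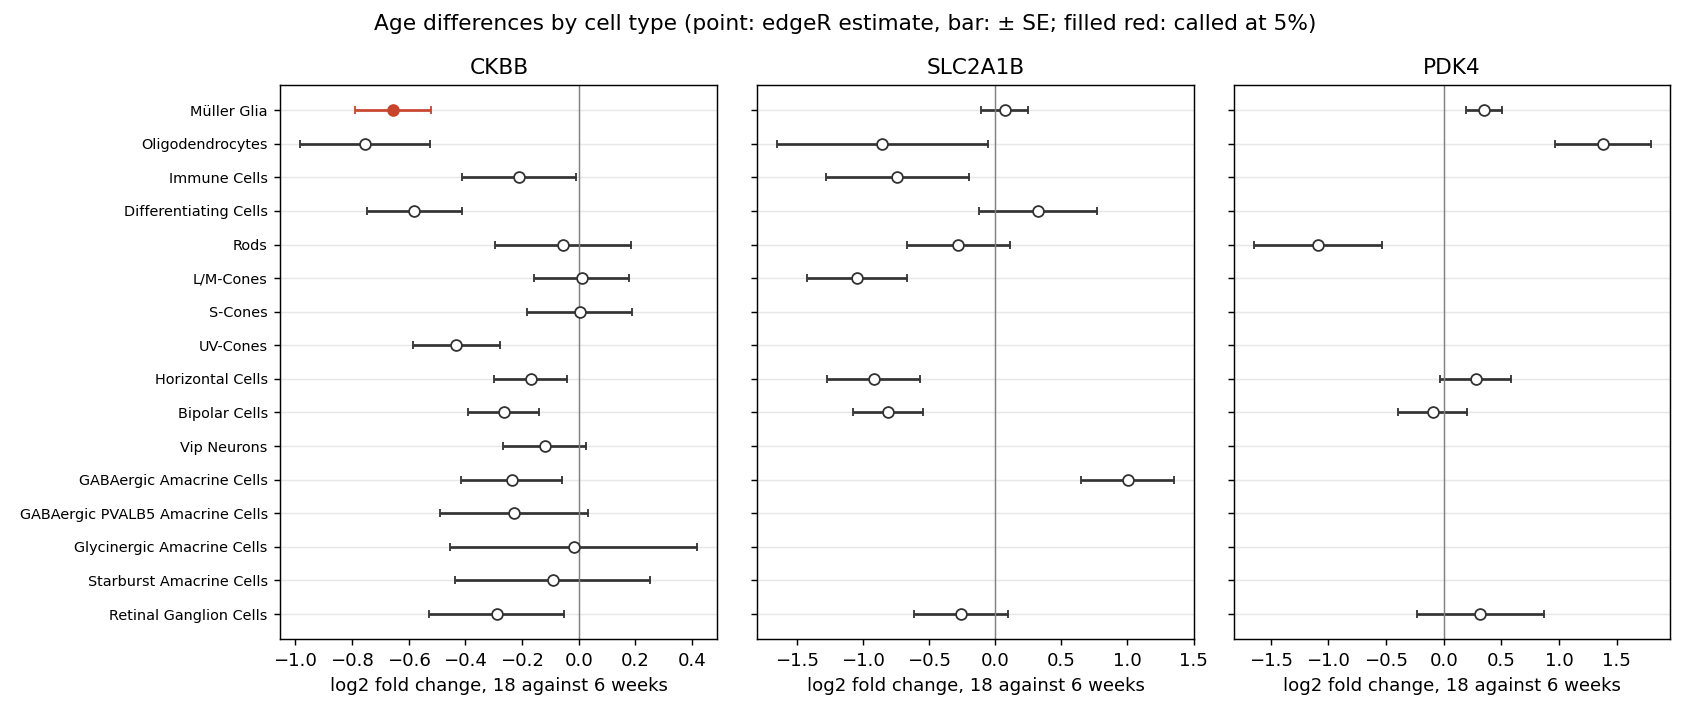
log2 fold change at 18 against 6 weeks with its SE (bars) for CKBB, SLC2A1B and PDK4 in each cell type in which it could be tested, filled red where called. The sole filled point is CKBB in Müller glia (-0.66), and CKBB estimates lie below 0 in 14 of 16 types.

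The members were set beside the other genes of their pathways, in 9 lists. Over all lists, 1048 pairs of gene and type were tested, and 1.43% were called at 18 against 6 weeks (8 higher and 7 lower), beside 2.36% of all pairs. The median log2 fold change was 0.0046, beside 0.0014 over all genes tested. The members SLC2A15A and CKBB are among the 15 called pairs.

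Of the glucose transporters, 8 entries and 39 pairs could be tested, and 2 pairs were called, both higher. Beside SLC2A15A in Müller glia this was SLC2A1A in L/M-cones, with 298 ± 10.4 CPM at 6 weeks and 474 ± 84.3 CPM at 18 weeks (SD, n = 2, 0.67, SE 0.17, adjusted p = 0.0368). SLC2A1A thus rose in L/M-cones, where SLC2A1B had a fold change on the other side. The call was lost without any 6- or 18-week-old library (adjusted p 0.0732 to 0.465).

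Of the pyruvate dehydrogenase kinases and phosphatases, 1 of 60 pairs was called, with a median log2 fold change of 0.27. PDK2(1OF2) rose in horizontal cells from 141 ± 15.7 to 199 ± 2.04 CPM (0.51, SE 0.13, adjusted p = 0.0366). In Müller glia 6 of the 7 entries, PDK4 among them, had fold changes above 0 and none was called. Of the complex itself and the pyruvate carrier, 1 of 92 pairs was called lower, DLAT in bipolar cells (-0.50, SE 0.11, adjusted p = 0.0197), which codes for a core subunit and was named after its values were seen.

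Of the lactate enzymes and monocarboxylate transporters, 3 of 107 pairs were called. LDHA, the lactate dehydrogenase subunit that favours lactate formation, fell in rods from 89.2 ± 12.7 to 29.2 ± 2.23 CPM (-1.62, SE 0.24, adjusted p = 0.0012) and in horizontal cells from 200 ± 6.04 to 141 ± 0.731 CPM (-0.50, SE 0.13, adjusted p = 0.0445). BSG, whose product brings lactate transporters to the membrane, rose in horizontal cells from 828 ± 23.5 to 1094 ± 26.9 CPM (0.40, SE 0.11, adjusted p = 0.0421). Of glycolysis, 2 of 255 pairs were called, both lower, and TPI1B, the triosephosphate isomerase, fell in rods from 224 ± 20.2 to 118 ± 19.5 CPM (-0.92, SE 0.20, adjusted p = 0.0206).

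In Müller glia, where the called members lay, GYG1B, a glycogenin that starts glycogen chains, rose from 892 ± 195 to 1414 ± 48.8 CPM (0.66, SE 0.16, adjusted p = 0.0217). FOXO1A, a transcription factor that in mammals switches on PDK4, rose from 337 ± 49.5 to 551 ± 43.4 CPM (0.71, SE 0.18, adjusted p = 0.0316). These were 1 of 88 glycogen pairs and 1 of 3 called among 174 pairs of fuel-switch regulators, all higher. The other regulators called were PFKFB4 in Müller glia, a switch of glycolytic rate named after its values were seen, and HIF1AL in bipolar cells (49.8 ± 2.44 to 66.2 ± 0.704 CPM, 0.41, SE 0.11, adjusted p = 0.0363). Of the creatine kinases and creatine supply genes, 2 of 100 pairs were called, both lower, CKBB in Müller glia and, named after its values were seen, GAMT, the last enzyme of creatine synthesis, in bipolar cells. Of fatty acid oxidation, 0 of 133 pairs were called in edgeR.

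Most of these pathway calls were lost when a library was left out, which can leave a single library at an age. A lost call alone thus does not show that the difference came from 1 library. The estimates kept their sign, from 0.38 to 0.44 for BSG and -0.53 to -0.47 for LDHA in horizontal cells. They moved more for GYG1B (0.46 to 0.91) and TPI1B (-1.09 to -0.75). LDHA in rods kept its call without each library in turn (adjusted p up to 0.0356). PDK2(1OF2) and BSG in horizontal cells were not called when 18-week-old replicate 1 (adjusted p = 0.159 and 0.200) or replicate 2 (0.177 and 0.187) was left out. With replicate 1 and replicate 2 left out in turn, the adjusted p was 0.205 and 0.265 for LDHA in horizontal cells, 0.116 and 0.413 for TPI1B in rods, 0.0937 and 0.161 for GYG1B, 0.0731 and 0.213 for FOXO1A, and 0.100 and 0.177 for HIF1AL. PDK2(1OF2), TPI1B and FOXO1A were also not called without 6-week-old replicate 2 (adjusted p 0.220, 0.116 and 0.149), nor GYG1B without replicate 1 (0.0520). LDHA in horizontal cells, BSG and HIF1AL were not called without either 6-week-old library (0.0824 and 0.150, 0.138 and 0.0965, 0.117 and 0.227), and HIF1AL not in DESeq2 (0.210). With the cells thinned to 1000 UMIs none of the 10 pairs plotted by log2 fold change was called (LDHA in rods 0.0685).

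**Figure D5:**
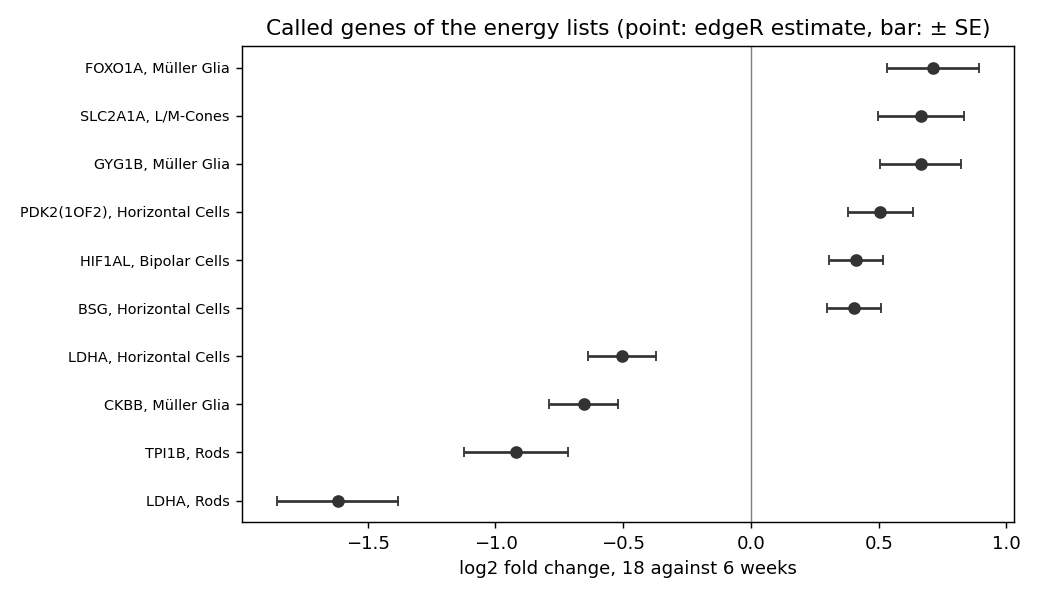
log2 fold change at 18 against 6 weeks with its SE (bars) for the 10 called pairs of a list gene and cell type with at least 50 CPM on average and no overlap between the 6- and 18-week-old libraries. LDHA in rods has the lowest value (-1.62) and FOXO1A in Müller glia the highest (0.71).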

How the data were processed

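Single-cell libraries of pooled retinas were made by the authors with a 10x Genomics 3′ kit, counted with Cell Ranger 7.0.1 on a custom killifish transcriptome, and clustered and named from marker genes in Monocle3. The deposited values are raw UMI counts of 24989 genes in 37243 cells with 1001 to 19991 UMIs each, and the treatment of doublets is not given in the sources used here. Counts were summed per library and cell type as named by the authors. Types with at least 10 cells in every library were tested.

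Ages were compared with edgeR 4.0.16 (R 4.3.3) by the quasi-likelihood test on the sums, with TMM scaling, genes kept by filterByExpr, all 6 libraries in a fit and Benjamini-Hochberg adjustment over the genes of a fit. The study's regression over single cells was not followed, because cells of 1 library are not replicates. The difference of an age effect between a type and the others was fitted with limma 3.58.1 on differences of log2 CPM within a library (prior count 2, genes whose mean reached 10 CPM). Both fits were also run on simulated data with known changes. The change simulated for limma was larger than the differences between types reported here, so that run cannot show whether such smaller differences would be found. Shares of cells with a UMI were also taken after thinning each cell to 1000 UMIs. Intervals and floors (3 counts) cover counting error only.

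The members and the 9 gene lists were chosen with earlier results of these data known. Of each list at most 3 genes higher and 3 lower were named, the largest changes among those called in a type, averaging 50 CPM or more there and no overlap between the 6- and 18-week-old libraries. Names in RefSeq (assembly NfurGRZ-RIMD1) were found for 3 of the 4 members and not for CKBB. Alternatives were DESeq2 1.42.0 and its size factors, no filter on low counts, the 6- and 18-week-old libraries alone, a replicate block, thinned cells, removal of ribosomal and 7SK RNA entries, bipolar cells without cluster 10, each library left out and, for limma, another prior count and no TMM.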

Additional observations from a re-analysis of the deposited data

Results flagged for a closer look

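Cells annotated as RPE entered no comparison, since the RPE had been taken off and 1 to 13 such cells remained per library. Whether all such cells are pigment cells was not tested. SLC2A15A had 8 UMIs in these cells at 18 weeks, against 1 UMI at 6 weeks and 0 at 12 weeks. Over all ages these UMIs came from only 7.84% of the 51 RPE-annotated cells. PDK4 had 4 UMIs in them at 18 weeks, all in replicate 1, 3 at 12 weeks and 0 at 6 weeks. Both were picked out because a signal stood above that of the youngest libraries in cells outside the comparisons, and the difference was not tested.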

How the results depend on the processing

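Without a filter on low counts, 5 pairs of a member and a type were called at 18 against 6 weeks (2 as reported), 2 at 18 against 12 weeks (1 as reported) and 40 pathway pairs (15 as reported). After thinning to 1000 UMIs these were 0, 0 and 3 pairs, and 0 members in the sum of all cells (1 as reported), with fewer UMIs in every sum. SLC2A15A in Müller glia gave no value after thinning. DESeq2 called 0 pairs at 18 against 12 weeks. The 6- and 18-week-old libraries alone gave 25 pathway pairs. With 1 library left out, the counts ranged from 1 to 4 pairs at 18 against 6 weeks, 0 to 3 at 18 against 12 weeks, 3 to 36 pathway pairs and 0 to 1 members in the sum of all cells. The lone library of an age is there assumed to vary like the others. SLC2A1B ranged from -0.049 to 0.19 in Müller glia and from -0.10 to 0.43 in the sum of all cells, where thinning gave -0.0063. At 12 against 6 weeks, and in the test of a difference between types, 0 pairs were called under every setting run. Of the single values, 240 kept direction and side of the threshold, 53 lost the call, 5 gained it and 4 turned sign. Unless fewer UMIs or libraries account for it, the cause was not tested.

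Libraries of equal replicate number deviated from their age mean alike at 12 and 18 weeks (correlation 0.55 over 11299 genes). At 6 weeks they deviated the opposite way (-0.35 with 12 weeks and -0.42 with 18 weeks). Replicate numbers thus did not pair the libraries across all 3 ages as labelled, but a shared difference between libraries was present. The fits reported above held no replicate block. With the replicate block, 3 member pairs were called at 18 against 6 weeks, 1 at 18 against 12 weeks, 1 member in the sum of all cells and 15 pathway pairs. With the 6-week numbers crossed, an alternative chosen after seeing the data, these were 3 pairs at 18 against 6 weeks, 2 members in the sum of all cells and 42 pathway pairs.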

Other observations

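Fatty acid oxidation was measured by 13 entries in Müller glia. Of these, 11 had a log2 fold change above 0 at 18 against 6 weeks, with a median of 0.27, and 0 were called in edgeR. The median over all genes in Müller glia was near 0 (-0.000998). Other types had medians of the same size, as L/M-cones (8 of 11 entries above 0, median 0.34), rods (9 of 12, 0.31) and S-cones (5 of 6, 0.28), while bipolar cells (-0.02) and oligodendrocytes (-0.16) did not. Glycolysis had 11 of 20 entries above 0 in Müller glia, with a median of 0.02 and 0 called.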
